A study of Mus musculus with 12 samples.

Results

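The pulldown of sensory neuron ribosomes was compared with the lysate it came from in the control condition. The comparison took 6 of the 12 samples by their labels, 3 of Input and 3 of immunoprecipitated (IP) RNA, and all 9073 genes of the count table. Every sample of the series came from adult mouse dorsal root ganglion (DRG) neurons of the genotype RPL22HA+/+;Advillin-Cre+, and the 6 control samples carried AAV-control, an adeno-associated virus with a control construct. The other 6 samples carried AAV-shGpr151, a virus with a short hairpin named for the receptor gene Gpr151, and serve here as a second pair of Input and IP. The series design speaks of cultured neurons from mice preconditioned by a sciatic nerve injury, whereas the extraction protocol speaks of fresh ganglia, and the labels give neither age nor sex. No group lacks the tag or the Cre, so RNA that binds to the antibody or beads without a tagged ribosome was not measured.

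RiboTag mice carry an Rpl22 allele whose last exon is exchanged for one with a haemagglutinin (HA) tag in cells with Cre, so that ribosomes of those cells carry tagged large-subunit protein L22. Advillin is expressed in sensory neurons, and Advillin-Cre is used to direct such alleles to them. An anti-HA antibody then retains tagged ribosomes with the RNA bound to them, while the Input holds RNA of all cells in the lysate, glia, fibroblasts, vessels and immune cells included. A ratio of IP over Input thus mixes the cell type a transcript came from with its binding to ribosomes.

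The 3 columns of each group behaved as 1 library dealt out 3 times. Chi-square per degree of freedom over all genes was 1.01 to 1.05 in the 6 pairs of columns within control Input or control IP, where counting noise alone gives values near 1, and 156 in the 9 pairs of an Input with an IP column. For this reason the columns of a group were added up and count as 1 sample, which leaves the comparison without a replicate check. The sums were 6332991 counts in Input and 4245486 in IP, with a median gene at 32 and 108 counts. Intervals are 95% and cover counting error only, because each group counts as 1 library and no spread between libraries enters them. The libraries were also amplified by PCR, and reads without molecular identifiers need not be separate molecules. The intervals may thus be too narrow even for counting error.

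Counts were concentrated in far fewer genes in Input than in IP. The most abundant 104 genes held 50% of the Input counts, against 318 genes in IP, and 90% lay in 794 genes of Input and 3130 of IP. The same numbers were 102 and 337, and 806 and 3259, in the libraries with the hairpin. The 10 most abundant genes held 13.1% of the Input and 8.07% of the IP counts.

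**Figure D1:**
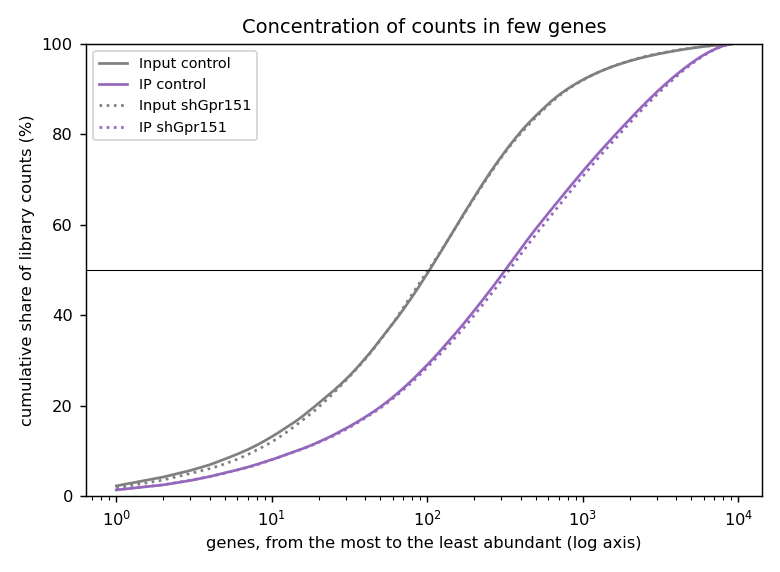
Cumulative share of library counts (vertical axis, percent) held by genes ordered from the most to the least abundant (horizontal axis, number of genes, log scale), with 1 line per library. Both Input lines reach 50% by 104 genes and both IP lines only by 318 or 337, and the curves of the 2 treatments lie nearly on each other.

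This difference in composition makes the scale matter. When counts were divided by library totals, and scaled to CPM (counts per 1000000), the median gene had a log2 ratio of IP over Input of 2.11. On library sizes by the trimmed mean of M values (TMM), which centre the bulk of the genes, every log2 ratio was lower by 2.17 and the median gene stood at -0.06. Ratios below are on TMM sizes unless library totals are named. A gene is called enriched in IP where its whole interval lay above a 2-fold ratio on TMM sizes, and depleted where it lay wholly below. On TMM sizes 971 genes were enriched, 10.7% of all, and 1713 were depleted, 18.9%. On library totals these numbers were 5591 (61.6%) and 595 (6.56%), and with upper quartile factors, which shift ratios by -1.91, they were 1303 and 1501. Because the scales differ by a constant, every gene enriched on TMM sizes passes on library totals by construction, and a ratio between -2.17 and 0 on TMM sizes lies above 0 on library totals. Of the depleted genes 595 were also depleted on library totals. The enriched set still moved with the factors, to 932 genes with TMM on the control columns alone.

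The 971 enriched genes held 1.11% of the Input and 22.7% of the IP counts, with a median of 26 Input and 391 IP counts per gene. The 595 genes depleted on both scales held 61.1% of the Input and 10.7% of the IP counts, with medians of 1558 and 100. The median enriched gene thus had an Input count near that of the median gene of the table, and the genes depleted on both scales held most of the lysate's counts.

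**Figure D2:**
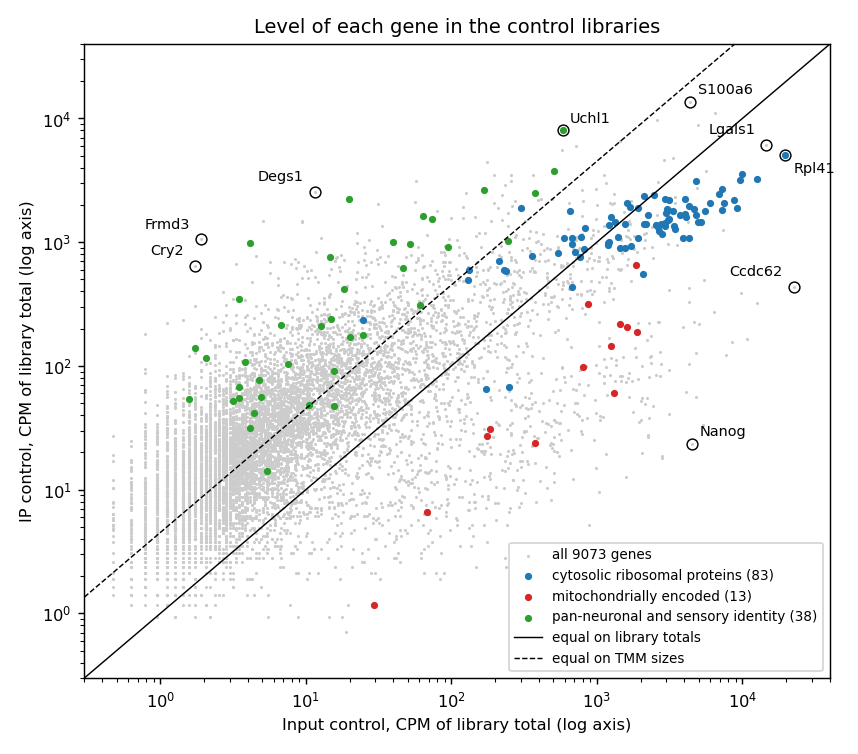
Level of each of the 9073 genes in Input control (horizontal axis) and IP control (vertical axis), in CPM of the library total on log axes, with ribosomal protein, mitochondrially encoded and neuronal genes in colour. Neuronal genes lie mostly above the dashed line of equal levels on TMM sizes, whereas all 13 mitochondrially encoded genes lie below the solid line of equal library totals.

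Genes that mark neurons in general were higher in the pulldown. Of 28 pan-neuronal genes, all in the table, 17 were enriched and 0 depleted, with a median log2 ratio of 1.71 on TMM sizes and 3.88 on library totals, and together they went from 0.249% of the Input counts to 3.01% of the IP counts. Of all genes with 65 to 234 Input counts, where this list had its median count, 10.9% were enriched and 23.5% depleted. Uchl1, a neuronal deubiquitinase, held 1227, 1225 and 1237 counts in the Input columns and 11560, 11539 and 11271 in the IP columns. Its level was 583 CPM in Input and 8096 CPM in IP, a log2 ratio of 1.62 (1.57 to 1.67).

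Rtn1, a reticulon of the neuronal endoplasmic reticulum, had the highest ratio of this list. It held 45, 44 and 37 counts in Input and 3152, 3221 and 3084 in IP, a log2 ratio of 4.63 (4.38 to 4.90). Tubb3, the neuronal beta tubulin, went from 374, 340 and 347 counts to 3727, 3707 and 3690, a log2 ratio of 1.79 (1.70 to 1.89). Columns of a group count as 1 library, so their closeness here and below adds no replicate check. Not every neuronal gene passed. Stmn2 and Stmn3, microtubule regulators of the stathmin family, had 0.71 (0.65 to 0.76) and 0.55 (0.49 to 0.62), and the lowest member, the intermediate filament gene Ina, had -0.78 (-1.41 to -0.13) on 34 and 60 counts. In a bulk library fewer cells of a type and less RNA per cell cannot be told apart, which holds for each list of cell type markers here.

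Transcripts that give DRG neurons their sensory identity were higher as well. Of 10 such genes in the table, from a list of 16, 7 were enriched and 0 depleted, with a median of 1.88. Slc17a6, the vesicular glutamate transporter VGLUT2, held 11, 8 and 7 counts in Input and 1355, 1357 and 1439 in IP, a log2 ratio of 5.72 (5.17 to 6.34). Scn9a, the sodium channel Nav1.7 of nociceptors, held 5, 5 and 3 counts and then 173, 166 and 149, a log2 ratio of 3.63 (2.85 to 4.55). Both genes were near the floor of the table in Input and well measured in IP. Ret, a receptor for glial cell line derived neurotrophic factor family ligands, had 1.89 (1.56 to 2.24).

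Avil itself, the gene whose regulatory sequence drives the Cre, was not among the enriched genes. Its columns held 34, 25 and 40 counts in Input and 127, 128 and 133 in IP, which is 15.6 and 91.4 CPM. The log2 ratio was 0.37 (0.05 to 0.71) on TMM sizes and 2.55 on library totals. Rpl22, the tagged gene, went the other way, from 1436, 1397 and 1439 counts to 608, 595 and 653, a log2 ratio of -2.80 (-2.88 to -2.72), and its paralog Rpl22l1 had -2.74 (-2.79 to -2.70). On library totals Rpl22 and Rpl22l1 stood at -0.63 and -0.57, and neither was depleted on that scale. The large-subunit genes had a median of -2.87 on TMM sizes. Gene counts do not separate tagged from untagged Rpl22 transcripts. Gpr151, the target named in the hairpin libraries, was enriched in control at 2.11 (1.51 to 2.78), on 10, 8 and 6 Input and 107, 109 and 98 IP counts. Csf1, a growth factor for macrophages that sensory neurons produce after injury, had 0.04 (-0.38 to 0.48) on 62 and 193 counts.

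The subtypes of sensory neurons were represented by shorter lists. Of 8 peptidergic nociceptor genes 4 were enriched and 0 depleted, with a median of 0.85. Of all genes with 32 to 65 Input counts, where this list had its median count, 13.1% were enriched and 11.4% depleted. Calca, which encodes the neuropeptide CGRP, held 259, 242 and 259 counts in Input and 2691, 2730 and 2682 in IP, a log2 ratio of 1.82 (1.71 to 1.93), and the neuropeptide gene Adcyap1 had 2.13 (1.79 to 2.49). The other CGRP gene, Calcb, had -0.12 (-0.34 to 0.11), and Gal, which encodes galanin, had -0.90 (-0.97 to -0.82). Peptide genes of 1 neuron class thus lay on both sides of 0 on TMM sizes, but on library totals Calcb and Gal stood at 2.06 and 1.28.

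Among 10 genes of mechanoreceptors and proprioceptors 5 were enriched and 1 was depleted, with a median of 1.21. Their median Input count was 16.5, and of all genes with 12 to 19 Input counts 10.8% were enriched and 1.85% depleted. Piezo2, the touch channel, held 5, 3 and 2 counts and then 82, 127 and 92, a log2 ratio of 3.32 (2.42 to 4.39). Spp1 (osteopontin) had 1.80 (1.68 to 1.92) and the heavy neurofilament gene Nefh 1.82 (1.51 to 2.14). Pvalb, the calcium-binding protein parvalbumin, was the depleted member, at -1.91 (-2.22 to -1.60), but at 0.27 on library totals. Of 8 genes of non-peptidergic and itch neurons only Ret passed, while the median was 1.29. Plxnc1, Gfra2 and the ATP receptor P2rx3 had ratios of 2.09, 1.70 and 1.09 with 7 to 27 Input counts, and their intervals reached below 2-fold.

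Genes of the neurotransmitter release machinery followed the pan-neuronal ones. Of 31 synaptic vesicle and secretory granule genes 14 were enriched and 0 depleted, with a median of 1.44, and their share of the counts went from 0.0356% to 0.448%. Their median Input count was 56, and of all genes with 32 to 65 Input counts 13.1% were enriched and 11.4% depleted. Snap25, a SNARE protein of the plasma membrane, had 41, 40 and 35 counts in Input and 552, 602 and 624 in IP, a log2 ratio of 2.34 (2.07 to 2.63). Its partner on vesicles, Vamp2, had 1.71 (1.45 to 1.97), and the synaptotagmin genes Syt4 and Syt11 had 2.48 (2.25 to 2.72) and 2.19 (1.96 to 2.42). Syn2, a synapsin that tethers vesicles, was highest at 3.14 (2.13 to 4.37) on 8 and 213 counts. Vamp1, a second vesicle SNARE, was lowest at -0.46 (-0.78 to -0.13).

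Ion channels were scarce in Input, where the 22 listed genes in the table, of 48, held 0.00801% of the counts. They held 0.093% in IP, and 6 were enriched and 0 depleted, with a median of 0.78. Asic3, an acid-sensing channel, held 9, 5 and 7 counts and then 156, 158 and 185, a log2 ratio of 2.97 (2.35 to 3.68). Clcn3, a chloride transporter of endosomes, had 2.42 (1.86 to 3.04), and Cacna2d1, the calcium channel subunit to which gabapentin binds, had 1.67 (1.30 to 2.05).

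Motor proteins of axonal transport ranged from strongly enriched to strongly depleted. Of 36 genes 13 were enriched and 3 depleted, with a median of 0.52. Their median Input count was 100.5, and of all genes with 65 to 234 Input counts 10.9% were enriched and 23.5% depleted. The kinesin gene Kif21a held 23, 18 and 19 counts in Input and 2022, 2077 and 2125 in IP, a log2 ratio of 5.10 (4.73 to 5.49). The dynein light chains Dynll1 and Dynlrb1 had -1.20 (-1.27 to -1.13) and -1.95 (-2.02 to -1.89), yet 0.97 and 0.22 on library totals, so their direction depended on the scale. Actr10, a dynactin subunit, was depleted on both scales, with 10758, 10645 and 10660 counts in Input and 321, 306 and 296 in IP, a log2 ratio of -6.71 (-6.81 to -6.62).

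Genes induced in sensory neurons by nerve injury were more often enriched than depleted. Of 38 members analysed, 14 were enriched and 2 depleted, with a median of 1.17. Their median Input count was 79.5, and of all genes with 65 to 234 Input counts 10.9% were enriched and 23.5% depleted. Klf6, a transcription factor linked to axon growth, held 21, 21 and 18 counts and then 2101, 2053 and 2103, a log2 ratio of 5.11 (4.74 to 5.50). Atf3, the injury-induced transcription factor, held 38, 34 and 34 counts and then 656, 667 and 686, a log2 ratio of 2.65 (2.37 to 2.94). Jun, another injury factor, had 0.61 (0.38 to 0.85). Lgals1 (galectin 1) was lowest at -3.43 (-3.45 to -3.41), with 30889, 30541 and 30891 counts in Input and 8673, 8663 and 8602 in IP. It was depleted on both scales and still among the 12 most abundant genes of each library.

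Immediate early and clock-linked genes had no common direction, with 4 of 31 enriched and 4 depleted and a median of -0.32. The shares over all genes were 10.7% and 18.9%. Cry2, a repressor of the circadian clock, held 3, 4 and 4 counts in Input and 898, 904 and 932 in IP, a log2 ratio of 6.36 (5.52 to 7.37), whereas Ier5 had -2.68 (-3.41 to -1.98) on 55 and 26 counts.

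**Figure D3:**
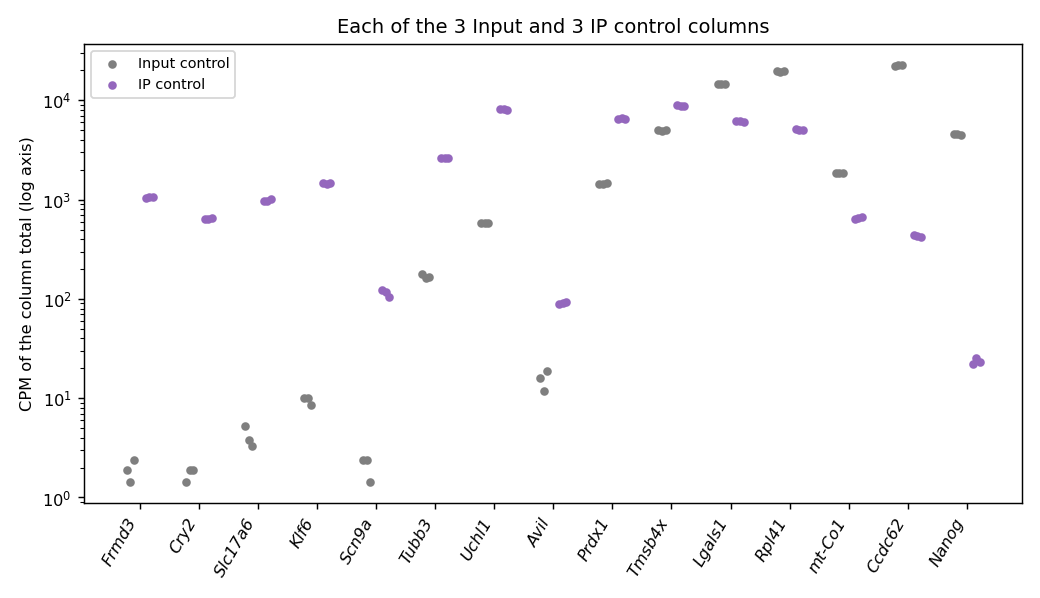
CPM of the column total (vertical axis, log scale) for 15 genes in each of the 3 Input control columns (grey) and the 3 IP control columns (purple). The columns of a group count as 1 library, so their closeness in every gene shown is not replication. On this scale Input and IP columns do not overlap in any of them, from Frmd3 with 1055 CPM in IP to Nanog with 23.6 CPM. Prdx1 and Tmsb4x lie higher in IP here but have log2 ratios of 0.01 and -1.34 on TMM sizes.

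Markers of the other cells of the ganglion were present in both libraries and did not share a direction. Over all genes 10.7% were enriched and 18.9% depleted, beside which the counts of these lists can be read. Satellite glia, which wrap the cell bodies of sensory neurons, had 4 of 16 genes enriched and 4 depleted, with a median of -0.02, and 0.594% of the Input against 0.622% of the IP counts. Apoe, a lipid carrier, had -0.23 (-0.34 to -0.12). The most abundant member was Dbi, which other cells also express, at 31121 and 11572 counts and a log2 ratio of -3.02 (-3.05 to -2.99).

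Schwann cells, the glia of axons, had 2 of 15 markers enriched and 4 depleted, with a median of -0.13 and shares of 0.0497% and 0.237%. Mag, the myelin-associated glycoprotein, went from 498, 481 and 468 counts to 11, 15 and 18, a log2 ratio of -6.64 (-7.10 to -6.20). Pmp22, a protein of peripheral myelin, had 0.85 (0.68 to 1.03).

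Fibroblast markers had 3 of 17 enriched and 1 depleted, with a median of -0.13 and shares of 0.0708% and 0.22%. Col6a3, a collagen VI chain, held 7, 6 and 4 counts and then 550, 539 and 582, a log2 ratio of 5.02 (4.34 to 5.81). Fn1 (fibronectin) had -4.71 (-4.93 to -4.49) on 1615 and 187 counts. Apod had 0.58 (0.41 to 0.74) and Mgp, an inhibitor of calcification, -1.0 (-1.11 to -0.90).

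Macrophage and immune markers were the lowest list of another cell type. Of 17 in the table, from a list of 25, 1 was enriched and 7 were depleted, with a median of -1.43 on TMM sizes and 0.74 on library totals, and 3 were depleted on both scales. Tyrobp and Fcer1g, signalling adaptors of myeloid receptors, had -4.22 (-4.49 to -3.97) and -3.89 (-4.14 to -3.64). C1qa, a complement subunit of tissue macrophages, was the enriched member, with 12, 21 and 11 counts in Input and 156, 154 and 192 in IP, a log2 ratio of 1.92 (1.47 to 2.39). As a share of the library the whole list had 0.0637% in Input and 0.0741% in IP, so the list's summed counts and its median gave different pictures.

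Endothelial and mural markers had 1 of 14 enriched and 2 depleted, with a median of -0.59, against 10.7% and 18.9% of all genes called. The contractile genes Tagln and Tpm2 were depleted at -1.82 (-2.04 to -1.60) and -1.72 (-2.05 to -1.40), though at 0.35 and 0.45 on library totals, and Pdgfrb, a pericyte receptor, was enriched at 2.04 (1.32 to 2.84). Of 7 erythroid genes listed 0 were among the genes analysed. No marker in the table is at 0, because its lowest count is 1 in any column. The part of these cells in the ratios of other genes was not tested.

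**Figure D4:**
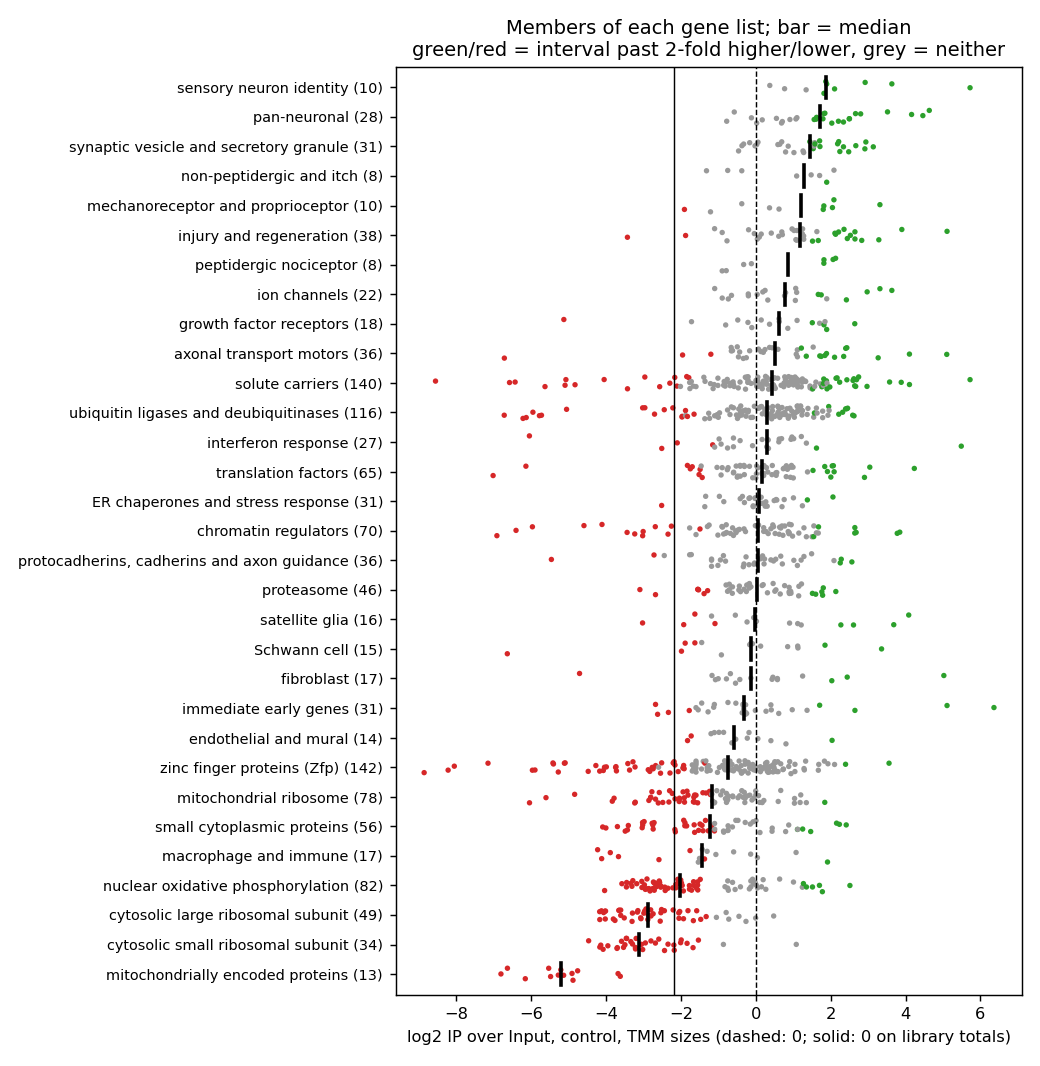
Log2 ratio of IP over Input in control on TMM sizes (horizontal axis) for every member of 31 gene lists (rows, members in brackets), with the list median as a bar and enriched and depleted genes in green and red. Sensory and pan-neuronal lists have the highest medians, 1.88 and 1.71, and ribosomal protein and mitochondrially encoded lists the lowest, down to -5.21.

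Transcripts of the cytosolic ribosome held more of the Input counts than any other list and were lower in IP. Of 49 large-subunit genes 42 were depleted and 0 enriched, with a median of -2.87, and 16 were depleted on both scales. Of 34 small-subunit genes 32 were depleted and 0 enriched, with a median of -3.12, and 15 on both scales. In the most abundant sixth of all genes by Input 72.3% were depleted, with a median of -2.34. The 2 groups went from 15.2% and 10.7% of the Input counts to 7.49% and 5.09% of the IP counts. Rpl41, which encodes the shortest protein of the ribosome, held 41355, 41198 and 41340 counts in Input and 7279, 7154 and 7087 in IP, a log2 ratio of -4.12 (-4.14 to -4.10). Rps28 had the lowest ratio, -4.46 (-4.50 to -4.43), and Rps29 and Rpl37a had -4.14 (-4.17 to -4.11) and -4.17 (-4.20 to -4.13). Exceptions were Rps4l at 1.08 (0.84 to 1.33) and Rplp2, an acidic protein of the ribosomal stalk, at 0.48 (0.41 to 0.55), for which neither call was made. Ribosomal protein genes have many processed pseudogenes, and the sources used here do not say how reads shared with such copies were counted.

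Messenger RNAs of ribosomal proteins are known to start with a run of pyrimidines, the terminal oligopyrimidine tract, so the sequence at the annotated start was read for them. RefSeq (GRCm38.p6) gave a promoter for 62 of the 83 genes. The 30 bases printed run 5′ to 3′ on the coding strand, 15 before and 15 from the start, and capitals mark the letters CTTTC. They show 2 genes with the letters, of which 1 was depleted and 1 was not, and 2 strongly depleted genes without them.
Rpl38 (chr11:114668565-114668594, + strand): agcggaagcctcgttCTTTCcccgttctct
Rplp2 (chr7:141447636-141447665, + strand): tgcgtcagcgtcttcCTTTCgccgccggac
Rpl41 (chr10:128549154-128549183, - strand): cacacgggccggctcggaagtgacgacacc
Rps28 (chr17:33824548-33824577, - strand): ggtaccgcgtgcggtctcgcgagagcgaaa
Rpl38 had a log2 ratio of -3.65 (-3.67 to -3.62). CTTTC stood in this window on the coding strand in 17 of the 62 ribosomal protein genes (27.4%) and on the other strand in 3 (4.84%). Among 7142 other analysed genes, 280 held it on the coding strand (3.92%), and among all 27025 promoters 1286 did (4.76%). The ratio did not separate by these letters, which are 1 short pyrimidine run and not the tract itself. The 17 ribosomal protein genes with CTTTC had a median of -2.97 with 15 depleted, and the 45 without it -2.88 with 40 depleted. Among other genes 17.5% with the letters and 18.2% without them were depleted. Starts without CTTTC can hold other runs of pyrimidines, as 1 start of Rpl34 did, so the tract was not tested. A match describes the annotated start only, and the starts used in these cells were not measured.

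All 13 protein-coding transcripts of the mitochondrial genome, which are translated inside mitochondria by other ribosomes, were depleted on both scales. Their median was -5.21, or -3.03 on library totals, and their share went from 1.19% to 0.198%. mt-Co1, a cytochrome c oxidase subunit, held 3907, 3887 and 3957 counts in Input and 894, 926 and 956 in IP, a log2 ratio of -3.68 (-3.74 to -3.62). mt-Atp6, an ATP synthase subunit, had -5.48 (-5.58 to -5.38), and mt-Nd4l was lowest at -6.81 (-8.45 to -5.56) on 185 and 5 counts. The least depleted, mt-Nd4, had -3.62 (-3.71 to -3.53). Of all genes 6.56% were depleted on both scales.

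Nuclear genes of the same respiratory complexes are translated in the cytosol and were also low on TMM sizes. Of 82 genes 55 were depleted and 6 enriched, with a median of -2.01. Their median Input count was 3620.5. In the most abundant sixth of all genes, from 234 Input counts, 72.3% were depleted with a median of -2.34, so this list does not stand below other abundant genes. On library totals that median was 0.16, and only 7 genes were depleted on both scales, so the list's direction depended on the scale. Cox6b1 and Cox6c, subunits of cytochrome c oxidase, had -2.75 (-2.79 to -2.72) and -2.91 (-2.94 to -2.87), and Cox7a1 was lowest at -4.04 (-4.37 to -3.72). Ndufa10, a complex I subunit, held 52, 47 and 43 counts in Input and 829, 794 and 830 in IP and was highest at 2.51 (2.27 to 2.77). The mitochondrial ribosome, also made in the cytosol, had 38 of 78 genes depleted and 1 enriched, with a median of -1.16 on TMM sizes and 1.01 on library totals. Its members ranged from Mrps26 at -6.04 (-6.30 to -5.80) to Mrpl19 at 1.84 (1.26 to 2.48).

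Other abundant cytoplasmic proteins spread widely. Of 56 genes listed as small cytoplasmic proteins 30 were depleted and 6 enriched, with a median of -1.22, or 0.95 on library totals. Of the most abundant sixth of all genes by Input 72.3% were depleted, with a median of -2.34. The share of the listed genes was 8.30% in Input and 10.8% in IP. S100a6, a calcium-binding protein, was the most abundant gene of the IP library, with 19574, 19301 and 19268 counts against 9355, 9263 and 9209 in Input, a log2 ratio of -0.53 (-0.55 to -0.51). Fth1, the ferritin heavy chain, went from 22571 to 4011 counts, a log2 ratio of -4.09 (-4.14 to -4.04), and Ubb, a ubiquitin gene, from 3622 to 23689, a log2 ratio of 1.11 (1.06 to 1.16). The antioxidant enzyme gene Prdx1 stood at 0.01 (-0.03 to 0.04), so abundance in IP did not go with 1 direction.

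The machinery of protein synthesis and turnover stood near the median gene outside the ribosome. Over all genes 10.7% were enriched and 18.9% depleted. Translation factors had 10 of 65 enriched and 8 depleted with a median of 0.17, from Eif2s3x, a subunit of initiation factor eIF2, at 4.23 (3.83 to 4.67) to Eef1akmt3, a methyltransferase of an elongation factor, at -7.02 (-7.49 to -6.57). Eef1a1, the elongation factor itself, had -0.48 (-0.54 to -0.43). Proteasome genes had 6 of 46 enriched and 7 depleted with a median of 0.02. Chaperones and stress genes of the endoplasmic reticulum had 2 of 31 enriched and 1 depleted with a median of 0.08, and Canx (calnexin) was highest at 2.06 (1.78 to 2.35). Interferon response genes had 2 of 27 enriched and 4 depleted, from Ifit1 at 5.49 (4.44 to 6.81) on 7 and 950 counts to Xaf1 at -6.05 (-6.20 to -5.89) on 7821 and 358.

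The 15 genes named at the upper end had at most 126 counts in the summed Input. Frmd3, a FERM domain protein, held 4, 3 and 5 counts in Input and 1476, 1498 and 1503 in IP, a log2 ratio of 6.95 (6.14 to 7.90). Gtf2a1, a general transcription factor, held 6, 10 and 16 counts and then 2073, 2114 and 2161, a log2 ratio of 6.04 (5.54 to 6.59). Degs1, a desaturase of ceramide synthesis, held 29, 22 and 22 counts and then 3696, 3666 and 3528, a log2 ratio of 5.62 (5.29 to 5.98). All 3 had at most 29 counts in any Input column and at least 1476 in every IP column. The other genes named at this end by interval were Rgs17, Tspan14, Erap1, Ubash3b and Cmas, from 4.74 to 5.67, beside Cry2, Slc17a6, Ifit1, Klf6, Kif21a, Col6a3 and Rtn1 above. They include neuronal transcripts and also a collagen gene and an interferon gene.

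Single genes at the lower end were very abundant in the lysate and included genes known for other tissues. Ccdc62, a coiled-coil protein of the testis, was the most abundant gene of the Input, with 46981, 47992 and 48049 counts against 625, 612 and 601 in IP, a log2 ratio of -7.88 (-7.95 to -7.81). Nanog, a transcription factor of pluripotent cells, held 9597, 9588 and 9379 counts in Input and 31, 36 and 33 in IP, a log2 ratio of -9.75 (-10.05 to -9.47). Olfr1423, annotated as an olfactory receptor, held 6257, 6535 and 6333 counts and then 4, 1 and 3, the lowest ratio of all, -12.82 (-14.03 to -11.84). These 3 genes are not markers of sensory neurons, and their Input counts exceed those of Uchl1.

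Dct, an enzyme of melanin synthesis, had -9.59 (-10.27 to -9.0) on 5627 and 22 counts, and Pde6g, a phosphodiesterase subunit of photoreceptors, -8.92 (-9.40 to -8.48) on 6580 and 41. Nlrc3, a regulator of innate immunity, had -9.50 (-9.74 to -9.26) and H2-T23, a nonclassical MHC class I gene, -9.47 (-9.81 to -9.14). Zfp410 had -8.22 (-8.33 to -8.11) on 68575 and 697 counts. Pbld1, Polg2, Zfp131, Slfn5, Rin1, Hlcs, Trpm2 and Mtg2 lay between -9.40 and -8.21. Whether the reads counted for these genes were spliced transcripts of them could not be read from a table of gene counts, and the sources used here do not say whether strand was used.

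Such genes were many. A log2 ratio below -6 was found in 183 genes, which held 25.05% of the Input and 0.748% of the IP counts, and 162 of them stood on no list. Below -8 there were 23 genes with 6.47% and 0.0732%. Of the 595 genes depleted on both scales 482 were on no list, and those held 34.2% of the Input and 3.10% of the IP counts. Zinc finger genes named Zfp, which form a list, had 41 of 142 depleted, 18 on both scales, and 2 enriched, with a median of -0.74. The shares over all genes were 18.9% depleted, 6.56% depleted on both scales and 10.7% enriched. The median Input count of the Zfp genes was 22. Of all genes with 19 to 32 Input counts 3.97% were depleted and 13.955% enriched.

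The ratio was lower in the most abundant sixth of the genes. Ordered by Input counts in 6 groups, the genes had median ratios of 0.59, 0.26, 0.26, 0.05, -0.33 and -2.34. In the top group, from 234 to 143022 counts, 72.3% were depleted and 2.91% enriched. The ratio shares its Input count with this order, so the genes were also ordered by the Input library with the hairpin, which is not in the ratio. The top group then had a median of -2.20 with 70.2% depleted.

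The second pair of libraries, with AAV-shGpr151, shares no library with the control pair. There 1135 genes (12.5%) were enriched and 1793 (19.8%) depleted. Of the 971 genes enriched in control 819 (84.3%) were enriched in it and 0 depleted, and all 971 had a ratio above 0. Of the 1713 depleted in control 1514 (88.4%) were depleted in it and 0 enriched, and 1712 had a ratio below 0. Pan-neuronal genes had a median of 1.99 there, sensory identity genes 2.62, the large and small ribosomal subunits -3.47 and -3.51, and mitochondrially encoded genes -4.93.

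Sizes of the ratio differed between the pairs. Frmd3 had 8.43 against 6.95 in control, Slc17a6 5.58 against 5.72, and Olfr1423 -11.22 against -12.82. Rplp2, called in neither direction, had -0.47 with the hairpin and 0.48 in control. Of the 183 genes below -6 in control 123 were below it in the second pair, where the same 183 held 19.5% of the Input counts. The 2 pairs were prepared in the same study and the labels do not say whether they came from separate animals, so this is a second pair of libraries and not a test over animals.

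**Figure D5:**
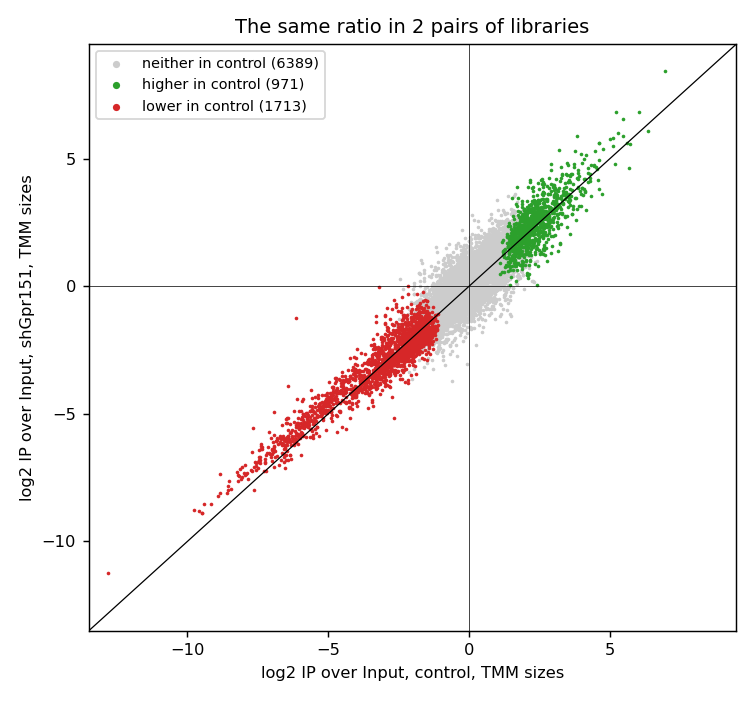
Log2 ratio of IP over Input on TMM sizes in control (horizontal axis) and with shGpr151 (vertical axis), 1 point per gene, coloured by the call in control. The 971 enriched genes (green) all lie above 0 on the vertical axis and 1712 of the 1713 depleted genes (red) below it, along the line of equal ratios.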

How the data were processed

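Per the labels' protocols, the kit used was a nanopore kit for barcoded cDNA amplified by PCR. The submitters' processing notes name minimap2, Salmon and the builds GRCm39 and mm39, without versions. The authors deposited raw gene counts, whole numbers of at least 1 in every column, for 9073 Ensembl IDs. Symbols were matched to 9061 IDs, and 12 had none. The labels do not say whether columns came from separate animals or cultures, so any spread between them may be technical.

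Columns of a group were summed. Log2 ratios used TMM sizes from edgeR 4.0.16 (R 4.3.3, all 12 columns, filterByExpr at a minimum count of 10) or library totals, with exact conditional binomial 95% intervals (Clopper-Pearson). With 1 library per group no test across samples exists and no p-value is given. Counts were simulated for the control comparison (9073 genes, 50 changed per size), with IP drawn from the Input profile and counting noise alone. The call found 0 genes changed 1.5-fold, a size below its 2-fold limit, and 22 changed 3-fold. It found 30 at 4-fold, 33 of those changed 8-fold, and 1 of 8873 unchanged genes. The simulation lacks the real difference in composition, so these numbers do not give the error of the calls made here.

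Members and the 33 lists were chosen with earlier results of these data known. Genes were named by a rule that skipped pseudogenes, Riken clones and predicted models. It took the 15 enriched and 15 depleted genes whose interval lay farthest from 0, the 12 most abundant per library, per list the 4 most abundant and both extremes, and always Gpr151, Csf1, Avil, Rpl22 and Rpl22l1. The search for CTTTC was chosen after seeing the data. Alternatives used DESeq2 1.42.0, and figures matplotlib 3.10.9. Gene and protein length were not analysed here. A few genes this rule takes are left out of the text.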

Additional observations from a re-analysis of the deposited data

How the results depend on the processing

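The call counts depended on the scale and on the rule. On library totals they were 5591 enriched and 595 depleted against 971 and 1713. Intervals wholly past 4-fold gave 286 and 1021 (286 and 380 on both scales), and past 1-fold 2750 and 3076 (2750 and 929 on both scales). edgeR's quasi-likelihood test with Benjamini-Hochberg adjustment on the columns, whose common biological coefficient of variation (BCV) was 1.23%, gave 2704 and 2730, and DESeq2 gave 2446 and 2628. An assumed BCV of 20% gave 1536 enriched, and one of 40% gave 377 and 1040. Deviations of same-numbered Input and IP columns had correlations from -0.016 to -0.0013. Columns that differ by counting noise alone cannot show whether the replicate numbers pair the samples. The replicate block gave 2703 and 2728. Without 1 column at a time the calls ranged from 865 to 950 enriched and from 1643 to 1681 depleted. Of the named genes Plxnc1 became enriched without IP column 1 (2.29) or Input column 1 (2.73), Gfra2 without Input column 3 (2.61) and S100b without IP column 1 (1.14). Mrpl19 (1.64) and Sparc (-1.07) lost their call without Input column 3, and Sparc also without IP column 2 (-1.06). Size factors of DESeq2, upper quartile factors, TMM on the control columns alone, TMM without a filter and a mean of at least 20 counts kept both counts within 1.5 times.

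The 50 most abundant genes held 34.7% and 19.75% of the Input and IP counts, and the 10 most abundant outside the ribosomal protein and mitochondrially encoded genes 10.7% and 8.04%. The top sixth ordered by the other Input library had -2.20.

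Library totals turned 5 list medians from below -1 to above 0, macrophage to 0.74, noncoding RNA hosts to 1.05, small cytoplasmic proteins to 0.95, oxidative phosphorylation to 0.16 and mitochondrial ribosome to 1.01. Of the named genes depleted on TMM sizes they turned 18 to above 0, Sparc (1.08), B2m (1.02), Dynll1 (0.97), Psmb6 (0.89), Tmsb4x (0.83), Lyz2 (0.80), Ppia (0.77), S100a10 (0.68), Eif1 (0.66), Psmb3 (0.62), Cox7c (0.51), Tpm2 (0.45), Tagln (0.35), Pvalb (0.27), Dynlrb1 (0.22), Ndufa4 (0.21), Usp50 (0.21) and Ifitm3 (0.076). By construction that scale adds 2.17 to each ratio, so list medians and uncalled genes between -1 and 0 turned as well. Protein length, planned in 6 groups, was not run because no protein lengths were at hand. Genes with few Input counts have wide intervals, and small changes in them were not detectable at this depth.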

Other observations

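Further groups of genes had values outside the comparisons above. Over all genes 10.7% were enriched and 18.9% depleted, and a list near these shares does not stand apart from the table. Growth factor receptors had 4 of 18 enriched and 1 depleted, with a median of 0.62. Lifr, the receptor for leukaemia inhibitory factor, held 59, 63 and 73 counts in Input and 1245, 1188 and 1252 in IP, a log2 ratio of 2.64 (2.44 to 2.86), whereas Fgfr1 had -5.13 (-5.35 to -4.91) on 2229 and 193 counts. Solute carriers had 22 of 140 enriched and 16 depleted, with a median of 0.43, from Slc17a6 at 5.72 to Slc23a1, a vitamin C transporter, at -8.55 (-9.51 to -7.74). Slc25a4, the mitochondrial ADP/ATP carrier, had 1.52 (1.41 to 1.63). Cadherin and axon guidance genes had 3 of 36 enriched and 2 depleted, with the semaphorin receptor gene Plxna4 at 2.57 (1.95 to 3.26) and the ephrin receptor gene Epha2 at -5.46 (-6.49 to -4.58).

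Ubiquitin ligases and deubiquitinases had 9 of 116 enriched and 17 depleted, with a median of 0.31, against 10.7% and 18.9% over all genes. Fbxw7, a substrate receptor of a ubiquitin ligase, had 2.62 (1.75 to 3.65) on 11 and 205 counts, and the deubiquitinase gene Usp34 had -6.72 (-6.88 to -6.56) on 11108 and 319. Chromatin regulators had 7 of 70 enriched and 13 depleted, with a median of 0.06, near the shares of 10.7% and 18.9% over all genes. Smarca2, an ATPase of the SWI/SNF remodelling complex, had 3.85 (3.19 to 4.59), and Brd8, a bromodomain protein, had -6.40 (-6.50 to -6.31) on 24572 and 878 counts. Of 40 noncoding RNA hosts 2 were in the table, Tug1 at 2.94 (1.86 to 4.27) on 7 and 162 counts and Snhg11 at -5.19 (-5.52 to -4.87) on 1049 and 87.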
